A study of Homo sapiens with 12 samples.

Results

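Semaphorins are secreted or membrane-bound guidance cues first described in growing axons. They act through plexin receptors, and most secreted class 3 members need a neuropilin as co-receptor. In epithelial tumors members of the family have been linked to cell movement, adhesion and vessel growth. The genes described here are 8 semaphorins (SEMA5B, SEMA6B, SEMA6A, SEMA3A, SEMA3C, SEMA3F, SEMA4B and SEMA5A) and 2 plexin receptors (PLXNA1 and PLXNB2), 10 of the 23106 gene symbols in the count data. They were selected by name, with their levels and changes across the siRNA groups already known, to contrast members that are lower and higher after loss of the hypoxia-inducible factors (HIF). Their own differences between groups are therefore a description. Where one of the 10 is said to be called, this gives its place in the fit over all genes (adjusted p under 0.05) and supports nothing about the gene, since the same values chose it.

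RNA was measured in RCC4 cells, an established line of clear cell renal carcinoma in which the VHL tumor suppressor is not functional, so that HIF-1α and HIF-2α escape degradation at normal oxygen. All cells grew at 21% oxygen and were harvested 48 h after reverse transfection with pools of siRNAs at a total of 2 nM. The groups were control siRNA (2 nM), HIF1A siRNA (1 nM with 1 nM control siRNA), HIF2A siRNA against EPAS1, the gene of HIF-2α (1 nM with 1 nM control siRNA), and the double knockdown (1 nM of each HIF siRNA and no control siRNA). There were 3 replicates per group and 12 libraries in all, with total counts between 13263168 and 20451433. A single cell line in culture holds no endothelial, immune or stromal partner cells, and the double knockdown was not part of the study's own analysis.

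The siRNAs lowered their targets. HIF1A was at 120, 58.2 and 112 CPM (counts per 1000000 counts) with control siRNA and at no more than 22.2 with HIF1A siRNA, a log2 fold change of -2.37 (adjusted p = 4.3e-05, edgeR quasi-likelihood test). EPAS1 was at 138 to 171 CPM with control siRNA and at 9.16 to 11.9 after transfection against it (log2 fold change -3.95, adjusted p = 1.4e-07, edgeR). With HIF1A siRNA EPAS1 was at 101, 107 and 134 CPM, below each control library (log2 fold change -0.47, SE 0.15, not called). In the double knockdown HIF1A was at 24.2 to 32.2 CPM and EPAS1 at 7.01 to 11.3. Of 11 markers of epithelial kidney cancer cells, CDH1 alone stayed under 1 CPM in every library. Their summed level was 6020 to 7869 CPM with control siRNA and 4530 to 5898 in the double knockdown, and most of it was VIM, also a mesenchymal gene, at a mean of 4611 and 3661 CPM. The means of EPCAM, KRT8, KRT18, PAX2 and PAX8 were higher in the double knockdown and those of KRT19, CDH2 and the HIF target genes CA9 and NDUFA4L2 lower, with no test run here. All 5 endothelial markers stayed under 1 CPM, and of the leukocyte markers CD68 alone was measured above 1 CPM. PECAM1, PTPRC, CD3E and COL3A1 had no count in any library. Of the other pericyte and fibroblast markers DCN stayed under 1 CPM. With control siRNA COL1A1 was at a mean of 28.1 CPM, ACTA2 at 9.89, RGS5 at 4.75 and PDGFRB at 2.75. The summed level of the 6 pericyte and fibroblast markers was 39.0 to 55.7 CPM with control siRNA, 34.7 to 63.6 with HIF1A siRNA, 41.2 to 99.2 with HIF2A siRNA and 31.4 to 76.7 in the double knockdown, and its part in the results was not tested. In bulk RNA, fewer cells that use a gene and less RNA per cell cannot be told apart.

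The library of HIF2A siRNA replicate 2 stood apart for several of the genes, although EPAS1 was at 11.9 CPM in it, and replicate 3 differed from replicates 1 and 2 in all groups. Replicate 3 was the highest library in each of the 4 groups for SEMA3A, SEMA3C, SEMA4B and PLXNB2, 4 of the 10 genes, and for 8 of the 27 family genes tested. Groups were compared with the replicate number as a block, as the study paired its conditions.

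Upstream sequences are shown for SEMA5B and SEMA4B, the genes with the largest differences downward in the double knockdown. RefSeq promoter windows on GRCh38.p14 were at hand for 7 of the 10 genes, and those of SEMA6B, SEMA6A and SEMA3A were not used here. The 250 bases before each annotated start were searched on both strands for the 5-base cores of hypoxia response elements, ACGTG and GCGTG. Matches would stand in capitals. SEMA5B lies on chromosome 3, minus strand, with 3 annotated starts, and its most upstream window (chr3:123028606-123028855) has a GC content of 39.2%. SEMA4B lies on chromosome 15, plus strand, also with 3 annotated starts, and its most upstream window, here without the last bases that lie in an exon (chr15:90184670-90184917), has a GC content of 72.0%.
SEMA5B, minus strand: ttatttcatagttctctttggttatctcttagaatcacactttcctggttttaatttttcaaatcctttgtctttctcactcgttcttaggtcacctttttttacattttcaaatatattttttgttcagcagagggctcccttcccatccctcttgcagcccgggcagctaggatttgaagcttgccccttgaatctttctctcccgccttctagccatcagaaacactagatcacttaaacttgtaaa
SEMA4B, plus strand: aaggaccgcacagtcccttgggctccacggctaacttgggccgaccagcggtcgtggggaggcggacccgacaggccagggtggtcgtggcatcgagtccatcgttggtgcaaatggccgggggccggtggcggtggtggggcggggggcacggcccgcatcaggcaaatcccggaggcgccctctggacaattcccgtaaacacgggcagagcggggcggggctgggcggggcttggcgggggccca
Neither core occurred in these windows, nor in any of the 14 windows of the 7 genes. Over all 35116 promoter windows of the same length, 18.5% hold ACGTG, 32.2% hold GCGTG and 43.2% hold either. This says only that these letters are not in these windows, and the counts do not tell which start is used in RCC4 cells.

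In cells with control siRNA the 10 genes spanned a wide range of levels per length, here CPM per kb of annotated exon. PLXNB2, a receptor of class 4 semaphorins, stood at 51.1 ± 13.8 CPM per kb (SD, n = 3), the highest mean of the 31 semaphorin, plexin and neuropilin genes. SEMA3C, a secreted ligand, was at 34.2 ± 6.63, and SEMA4B, a membrane-bound ligand, at 13.6 ± 3.17. SEMA6A, a transmembrane ligand of A-type plexins, followed at 9.70 ± 0.529, and PLXNA1, a receptor that works with neuropilins, at 5.58 ± 0.966. The ranges of the 3 libraries did not overlap between neighbours among the 10 genes down to SEMA3F at 3.54 ± 0.893. SEMA3F overlapped with SEMA3A at 2.52 ± 1.40, and SEMA3A overlapped slightly with SEMA5B at 0.916 ± 0.406. SEMA5B, SEMA6B at 0.456 ± 0.0311 and SEMA5A at 0.437 ± 0.146 had overlapping ranges at the foot of the order. In the double knockdown SEMA6B stood at 2.78 ± 0.550 CPM per kb and SEMA5B at 0.131 ± 0.0885. SEMA6B then lay above SEMA5B, whose range it had overlapped with control siRNA.

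**Figure D1:**
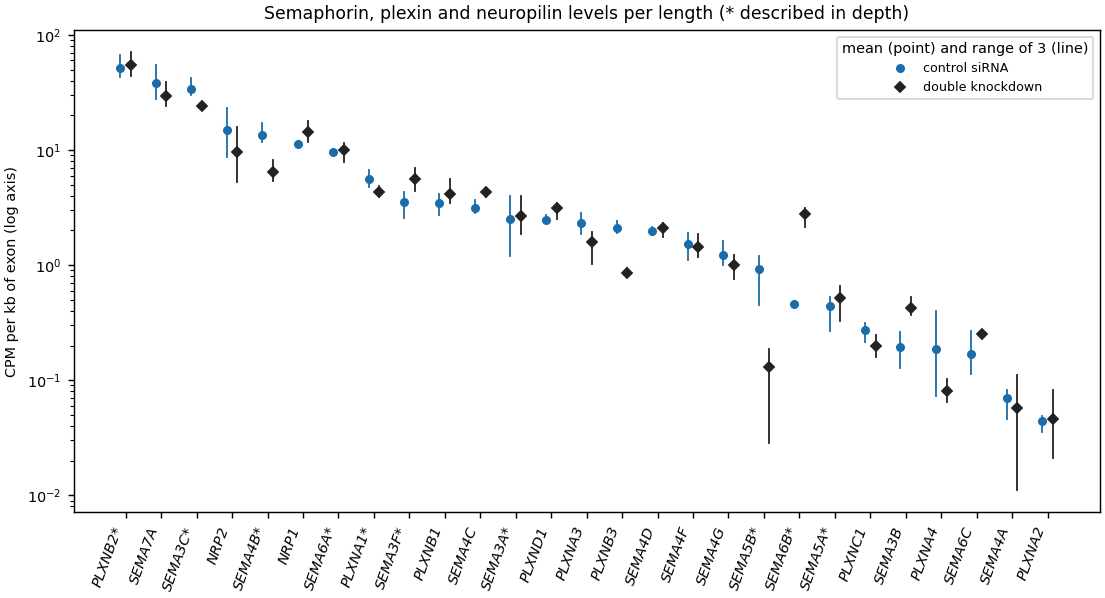
Mean level per length (points, CPM per kb of exon, log axis) and range of 3 libraries (lines) of the 27 measured semaphorin, plexin and neuropilin genes with control siRNA and in the double knockdown, ordered by the control level. SEMA6B moves from 0.456 to 2.78 CPM per kb and SEMA5B from 0.916 to 0.131.

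None of the 10 genes was called with HIF1A siRNA or with HIF2A siRNA alone, against 1.17% and 0.0857% of the 12830 genes tested (edgeR, adjusted p under 0.05). With HIF1A siRNA 0 of the 10 had an unadjusted p under 0.05 and DESeq2 called 0. With HIF2A siRNA the counts were 4 and 1, the latter being SEMA4B. Over all 12830 genes these counts were 940 and 236 with HIF1A siRNA and 690 and 58 with HIF2A siRNA. In the double knockdown 5 of the 10 were called against 10.3% of the 13000 genes tested. SEMA5B, SEMA4B and SEMA3C were lower (3 of 10, against 6.42% of genes called lower), and SEMA6B and SEMA3F were higher (2 of 10, against 3.86% called higher). As these contrasts chose the genes, nothing is read from the counts. The median log2 fold change of the 10 genes was 0.12 with HIF1A siRNA, -0.21 with HIF2A siRNA and 0.06 in the double knockdown, beside medians of 0.0035, 0.0063 and 0.0048 over all genes tested. The comparisons share the control libraries.

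**Figure D2:**
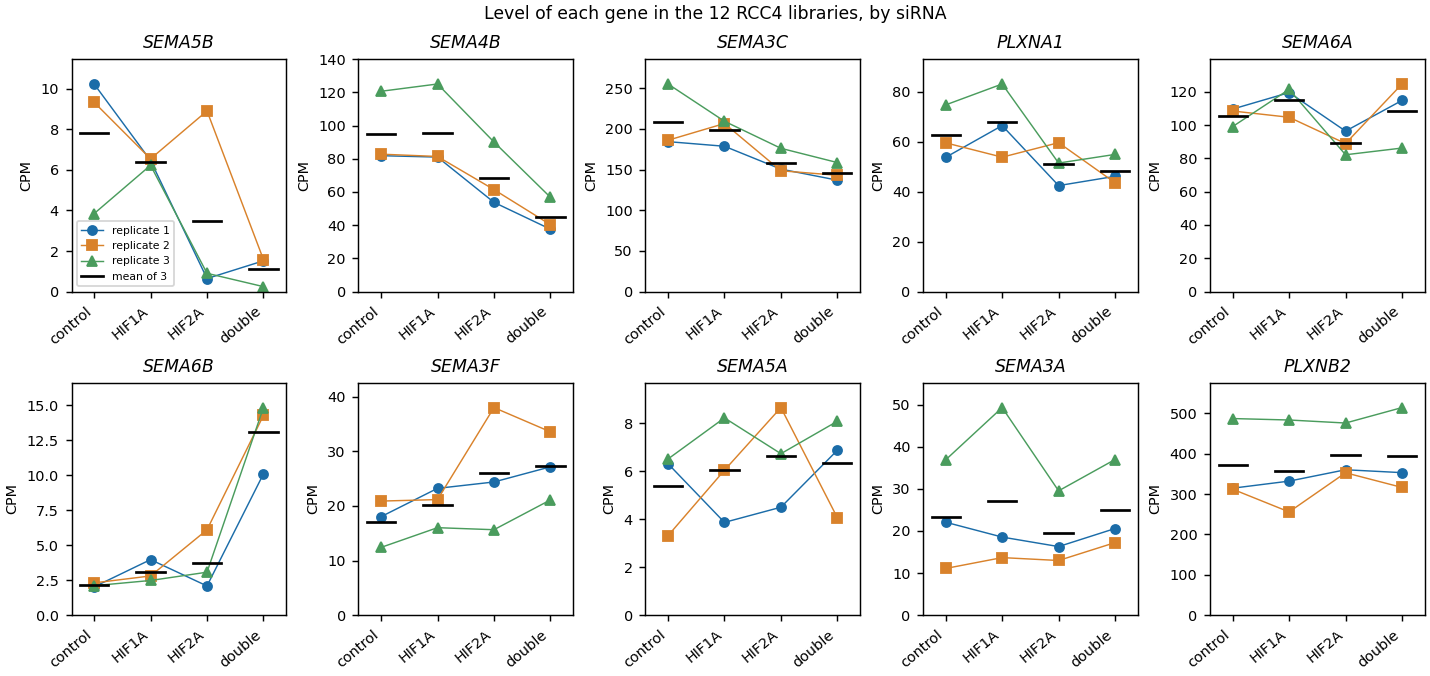
Level (CPM) of the 10 genes in each of the 12 libraries, with lines joining libraries of the same replicate number and black bars for the mean of 3. SEMA6B is at 10.1 to 14.9 CPM in the double knockdown and at most 6.11 elsewhere, and SEMA5B runs from 0.643 to 8.91 CPM within the HIF2A siRNA group.

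SEMA5B encodes a transmembrane ligand with thrombospondin repeats outside the cell. With control siRNA it was at 10.2, 9.33 and 3.84 CPM in replicates 1, 2 and 3. With HIF1A siRNA it was at 6.46, 6.54 and 6.23 CPM, inside the control range. With HIF2A siRNA it was at 0.643, 8.91 and 0.901 CPM, so that replicates 1 and 3 lay under every control library and replicate 2 lay among them. In the double knockdown it was at 1.52, 1.58 and 0.243 CPM, which is 18.8, 21.1 and 17.1% of the control library of the same number on the scale of CPM plus 0.5. The pseudocount sets this share at such low levels, since the geometric mean of the 3 pairs was 18.9% with 0.5 CPM, 13.4% with 0.1 CPM and 32.7% with 2 CPM. The double knockdown libraries all lay below the control libraries. These levels rest on few reads, since the double knockdown libraries held 30, 21 and 5 counts. The log2 fold change against control siRNA was -0.13 (SE 0.57) with HIF1A siRNA, -1.57 (SE 0.62) with HIF2A siRNA and -2.89 (SE 0.65) in the double knockdown. The value with HIF2A siRNA rested on few libraries. It was -3.16 without the single library of HIF2A siRNA replicate 2 and was then called. It was -0.67 without the replicate 1 libraries of all groups in the fit. The double knockdown was lower than HIF1A siRNA by a log2 fold change of -2.80 (SE 0.66, not called). The call against control siRNA was lost without control siRNA replicate 1 (-2.41), without double knockdown replicate 2 and without double knockdown replicate 3. Against HIF2A siRNA the value was -1.36 (SE 0.68, not called), and 0.23 without HIF2A siRNA replicate 2.

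SEMA6B, also a transmembrane ligand of A-type plexins, ran the other way. It was at 2.02, 2.31 and 2.11 CPM with control siRNA, with an SD of 0.147. With HIF1A siRNA it was at 3.97, 2.80 and 2.48 CPM, each above the control libraries. With HIF2A siRNA it was at 2.09, 6.11 and 3.07 CPM, with replicate 1 inside the control range. The double knockdown libraries were at 10.1, 14.3 and 14.8 CPM, above all 9 other libraries. On the scale of CPM plus 0.5 they were at 421, 527 and 589% of the paired control. The pseudocount lowers these shares, since the ratio of the group means without it was 610%. The control libraries held 33, 46 and 34 counts. The log2 fold change was 0.55 (SE 0.41) with HIF1A siRNA, 0.75 (SE 0.41) with HIF2A siRNA (0.26 without HIF2A siRNA replicate 2) and 2.60 (SE 0.34) in the double knockdown. The double knockdown was also called against HIF1A siRNA (log2 fold change 2.05, SE 0.32) and against HIF2A siRNA (1.86, SE 0.32). The former call was lost without HIF1A siRNA replicate 2 or 3, and without the replicate block. Over the alternatives the value against control siRNA lay between 2.39 and 2.73.

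SEMA4B, a membrane-bound ligand, was also lower in the double knockdown. It was at 81.9, 82.8 and 121 CPM with control siRNA and at 81.0, 81.4 and 125 with HIF1A siRNA, nearly the same value in each replicate number. With HIF2A siRNA it was at 53.8, 61.5 and 90.1 CPM, lower than the paired control in 3 of 3 pairs although the groups overlap. In the double knockdown it was at 37.6, 40.3 and 56.8 CPM, or 46.3, 49.0 and 47.3% of the paired control. The double knockdown lay below all control libraries, and the share of the paired control varied little between replicate numbers. The log2 fold change was 0.01 (SE 0.11) with HIF1A siRNA, -0.48 (SE 0.12) with HIF2A siRNA and -1.08 (SE 0.10) in the double knockdown. It was called in the double knockdown against HIF1A siRNA (-1.09, SE 0.10) and against HIF2A siRNA (-0.60, SE 0.10) as well. The former call was lost without the replicate block, and the latter without the replicate 3 libraries (-0.56). Among the 10 genes, SEMA4B and SEMA6B were the 2 called in each of these comparisons, against 1.4% of 13000 genes for HIF1A siRNA and 4% for HIF2A siRNA.

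SEMA3C, a secreted ligand that binds neuropilins, was at 184, 186 and 255 CPM with control siRNA. It was at 179, 207 and 209 CPM with HIF1A siRNA and at 151, 149 and 176 with HIF2A siRNA. The double knockdown libraries were at 137, 143 and 159 CPM, below each control library. The HIF2A siRNA libraries also lay below the control libraries. The log2 fold change was -0.06 (SE 0.12), -0.38 (SE 0.12) and -0.50 (SE 0.10) in the order HIF1A siRNA, HIF2A siRNA and double knockdown. The double knockdown and HIF2A siRNA differed by -0.11 (SE 0.10, not called). The call against control siRNA was lost without control siRNA replicate 3, the highest library.

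SEMA3F, a secreted ligand of NRP2 with repellent action on endothelial and tumor cells, was higher. It was at 18.0, 20.9 and 12.4 CPM with control siRNA and at 23.2, 21.1 and 16.0 with HIF1A siRNA. With HIF2A siRNA it was at 24.4, 38.0 and 15.6 CPM and in the double knockdown at 27.1, 33.5 and 21.1. The double knockdown lay above the control libraries, narrowly, and reached 149, 159 and 167% of the paired control. The log2 fold change was 0.27 (SE 0.18), 0.57 (SE 0.18) and 0.68 (SE 0.16) in the same order of siRNAs. The value with HIF2A siRNA went to 0.33 without HIF2A siRNA replicate 2. The call in the double knockdown was lost without control siRNA replicate 3 and without double knockdown replicate 3. SEMA3F shares exon bases with SEMA3F-AS1 on the opposite strand, and whether counting used strand is not given in the sources used here.

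The other 5 genes were called in none of the 7 comparisons. PLXNA1 was at 53.8, 59.6 and 74.8 CPM with control siRNA and at 46.2, 43.6 and 55.0 in the double knockdown, groups that just overlap, with a log2 fold change of -0.37 (SE 0.14). SEMA6A was at 110, 108 and 99.1 CPM with control siRNA and at 115, 125 and 86.2 in the double knockdown (log2 fold change 0.03, SE 0.12). With HIF2A siRNA SEMA6A was at 96.4, 88.9 and 82.2 CPM (log2 fold change -0.24, SE 0.12), all under the control libraries. SEMA3A, the classical repellent of axons, was spread mostly by replicate number, at 22.1, 11.1 and 36.9 CPM with control siRNA and 20.6, 17.2 and 37.0 in the double knockdown (log2 fold change 0.16, SE 0.17). SEMA5A, the relative of SEMA5B with thrombospondin repeats, was at 6.31, 3.31 and 6.51 CPM with control siRNA and 6.87, 4.06 and 8.08 in the double knockdown (log2 fold change 0.24, SE 0.33). PLXNB2 was at 315, 312 and 487 CPM with control siRNA and 353, 317 and 515 in the double knockdown (log2 fold change 0.09, SE 0.10). The groups overlapped for these last 3 genes. SEMA6A and SEMA5A also share exon bases with genes on the opposite strand.

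**Figure D3:**
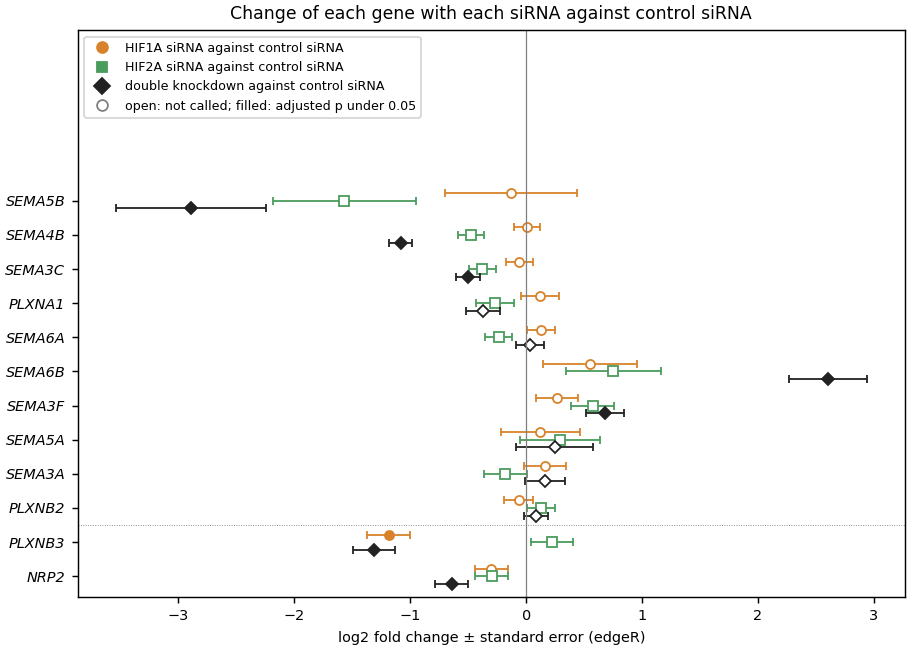
Log2 fold change against control siRNA (x axis, edgeR) with its standard error for the 10 genes and, under the dotted line, PLXNB3 and NRP2, with filled symbols for calls. The double knockdown runs from -2.89 for SEMA5B to 2.60 for SEMA6B, and PLXNB3 is at -1.19 with HIF1A siRNA and -1.31 in the double knockdown.

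The direct comparison of HIF1A siRNA with HIF2A siRNA called none of the 10 genes, against 1.5% of 12830 genes (edgeR). It had 5 with an unadjusted p under 0.05, against 1311 of 12830 genes, and DESeq2 called 1, against 329 over all genes. The median log2 fold change of the 10 was 0.33, beside -0.0069 over all genes. SEMA5B was at 1.43 (SE 0.63), SEMA4B at 0.48 (SE 0.12) and SEMA3C at 0.32 (SE 0.12), each higher with HIF1A siRNA, and SEMA6B was at -0.20 (SE 0.40).

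The interaction, the effect of the double knockdown beyond the sum of the single siRNAs on the log2 scale, was called for none of the 10 genes and for 0 of 13000 genes, or 0% (edgeR). Over all genes 318 had an unadjusted p under 0.05 and DESeq2 called 11, and over the 10 genes the counts were 2 and 1. SEMA6B had an interaction of 1.30 (SE 0.47), with 1.30 as the sum of the single effects and 2.60 in the double knockdown. SEMA4B had an interaction of -0.60 (SE 0.14) and was the gene called by DESeq2. SEMA5B had -1.27 (SE 0.89), a value that draws on HIF2A siRNA replicate 2, at 8.91 CPM beside 0.643 and 0.901. Without that library the double knockdown was no longer lower than HIF2A siRNA for SEMA5B. SEMA3C at -0.05 (SE 0.15) and SEMA3F at -0.14 (SE 0.23) lay close to the sum of the single effects. As the double knockdown received no control siRNA, its absence and the joint loss of both factors cannot be told apart.

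**Figure D4:**
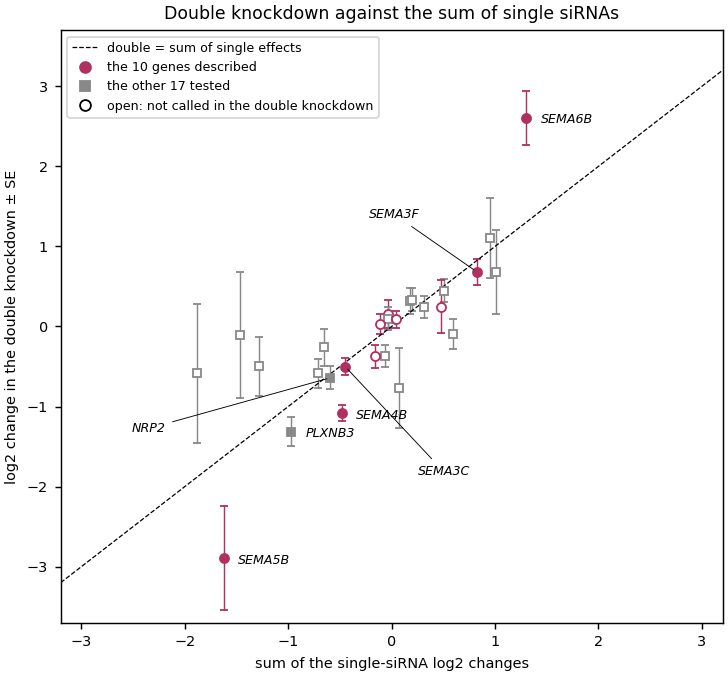
Log2 change in the double knockdown with its standard error (y axis) against the sum of the changes with each single siRNA (x axis), from the fit of 12 libraries, for the 10 genes and the other 17 family genes tested. The dashed line marks equality, and SEMA6B lies above it at 2.60 against 1.30 while SEMA4B lies below it at -1.08 against -0.48.

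Of the other 21 semaphorin, plexin and neuropilin genes, 17 were tested. SEMA3D, SEMA3E, SEMA3G and SEMA6D were filtered out, and SEMA3G had 0 counts in all libraries, which allows up to 0.146 to 0.226 CPM per library (3 counts, counting error only). PLXNB3, a B-type plexin, was at 13.4, 16.8 and 14.2 CPM with control siRNA and at 4.71, 7.70 and 7.25 with HIF1A siRNA, groups that do not overlap. It was at 16.1, 19.1 and 16.2 CPM with HIF2A siRNA and at 5.66, 6.62 and 5.55 in the double knockdown. PLXNB3 fell with HIF1A siRNA (log2 fold change -1.19, SE 0.19, adjusted p = 0.0050, edgeR) and in the double knockdown (-1.31, SE 0.18, adjusted p = 0.00024, edgeR), in 3 of 3 pairs each. The log2 fold change was 0.22 (SE 0.18) with HIF2A siRNA, and HIF1A siRNA against HIF2A siRNA gave -1.41 (SE 0.19, adjusted p = 0.0011, edgeR). The double knockdown against HIF2A siRNA gave -1.52 (SE 0.18, adjusted p = 9.5e-05, edgeR). The call with HIF1A siRNA was lost without HIF1A siRNA replicate 1 (-1.03) and without the replicate block. That in the double knockdown held in 21 of 21 alternatives.

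NRP2, the co-receptor of SEMA3F, was at 173, 121 and 322 CPM with control siRNA and at 108, 73.9 and 220 in the double knockdown. It fell in the double knockdown (log2 fold change -0.64, SE 0.14, adjusted p = 0.00997, edgeR), and the call was lost without control siRNA replicate 3 and without double knockdown replicate 2. NRP2 shares exon bases with a gene on the opposite strand. No other gene of the 17 was called in any comparison. The 2 called of 17 in the double knockdown stand beside 10.3% of all genes called, and the 1 of 17 with HIF1A siRNA beside 1.17%. The 17 are what was left after the 10 genes were chosen with their changes known, so these are not shares of the whole family. Of the 27 family genes tested, 7 were called in the double knockdown. The median log2 fold change of the 17 was -0.02 with HIF1A siRNA, 0.12 with HIF2A siRNA and -0.11 in the double knockdown.

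Of 10 co-receptors and partners of plexins, 6 were tested. L1CAM, an adhesion molecule that joins the receptor of SEMA3A, fell with HIF1A siRNA from 28.1, 19.8 and 86.2 CPM to 13.1, 10.5 and 60.4 (log2 fold change -0.83, SE 0.15, adjusted p = 0.014, edgeR). The call was lost without HIF1A siRNA replicate 1 or 2, and without the libraries of replicate 1 (-0.68) or of replicate 3 (-1.01). L1CAM also fell with HIF1A siRNA against HIF2A siRNA (-1.03, SE 0.15, adjusted p = 0.0023, edgeR) and in the double knockdown against HIF2A siRNA (-0.61, SE 0.13, adjusted p = 0.018, edgeR), the latter in 14 of 21 alternatives. None of the 6 was called with HIF2A siRNA or in the double knockdown against control siRNA by edgeR. There 0 and 4 had an unadjusted p under 0.05 and DESeq2 called 0 and 1. Over all genes 690 of 12830 and 3291 of 13000 had such a p, and DESeq2 called 58 and 1850.

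Of 31 genes of the signalling path inside the cell, 27 were tested. FYN, a tyrosine kinase downstream of plexin A receptors, was at 8.89, 7.73 and 18.8 CPM with control siRNA, 2.17, 3.81 and 10.9 with HIF1A siRNA and 2.22, 2.18 and 10.5 in the double knockdown. It fell with HIF1A siRNA (log2 fold change -1.23, SE 0.25, adjusted p = 0.030, edgeR), a call lost in 10 of 18 alternatives, among them the removal of any HIF1A siRNA library, and in the double knockdown (-1.49, SE 0.26, adjusted p = 0.0019, edgeR). Against HIF2A siRNA the double knockdown was at -1.15 (SE 0.26, adjusted p = 0.021, edgeR), called in 12 of 21 alternatives. DPYSL2, a collapsin response mediator that binds tubulin, was at 77.6, 96.3 and 73.7 CPM with control siRNA and 59.6, 69.0 and 45.3 in the double knockdown (log2 fold change -0.52, SE 0.11, adjusted p = 0.0073, edgeR). This call was lost without replicate 3 of control siRNA or of the double knockdown. The other 25 were not called in the double knockdown against control siRNA. The 2 called of 27 stand beside 10.3% of all genes called there, and the median of the 27 was -0.11 beside 0.0048 over all genes. None of the 27 was called with HIF2A siRNA, where 0 had an unadjusted p under 0.05 and DESeq2 called 0. Over all genes these counts were 690 and 58.

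The genes whose level ran most like that of SEMA5B were SRGAP2 (r = 0.972), DPY19L4 (0.952), C1orf106 (0.944), RNF149 (0.944) and SNTB1 (0.942). These are Pearson correlations of log2 CPM over 12 libraries, centred within replicate number, among 12999 genes, and the libraries share groups and replicate numbers. SRGAP2 has near-identical copies, so its counts are uncertain. For SEMA6B they were ATF5 (r = 0.976), WBP1L (0.965), NRG1 (0.959), NAB1 (0.951) and C10orf2 (0.948). WBP1L was at a mean of 21.2 CPM with control siRNA, 23.1 with HIF1A siRNA, 28.9 with HIF2A siRNA and 45.1 in the double knockdown. The correlation does not measure the size of a change. From control siRNA to the double knockdown, mean CPM went from 2.15 to 13.1 for SEMA6B, 51.7 to 78.4 for ATF5 and 58.3 to 77.0 for C10orf2. For SEMA5B it went from 7.80 to 1.11, for SRGAP2 from 46.1 to 38.7 and for C1orf106 from 9.34 to 5.00. Without centring, 0 of the 5 genes for SEMA5B and 1 of the 5 for SEMA6B stayed among the 5 most alike. Among the 10 genes, which were selected to contrast lower and higher members across these groups so that such signs are built in, SEMA5B ran with PLXNA1 (r = 0.894) and SEMA4B (0.867), and SEMA6B ran against SEMA4B (-0.882) over the 12 libraries.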

How the data were processed

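The authors trimmed adaptors with Trim Galore (0.3.3), aligned reads to hg19 with HISAT2, kept uniquely mapped fragments with Picard (2.0.1) and counted fragments per gene with HTSeq. They deposited raw counts per gene symbol for each of the 12 libraries, between 13263168 and 20451433 in total. Strand of counting was not given in the sources used here. From these counts, edgeR (4.0.16, R 4.3.3) was run with TMM scaling, filterByExpr (minimum count 10, minimum total 15), the replicate number as a blocking factor and the quasi-likelihood test, and p-values were adjusted after Benjamini and Hochberg over all genes tested. A gene was called at an adjusted p under 0.05. The 9 libraries with control, HIF1A or HIF2A siRNA were fitted together (12830 genes), and comparisons with the double knockdown used all 12 (13000 genes). CPM used TMM-scaled totals, and ratios within pairs used CPM plus 0.5. Levels per length used GENCODE exons, with gene models of another build than the counts. Promoter sequences are from RefSeq (GRCh38.p14).

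The study paired conditions by biological replicate. Deviations from group means correlated at 0.0991 to 0.813 across genes between libraries of the same number and at -0.724 to 0.527 between different numbers. Some libraries of different numbers were thus more alike than some of the same number, while the block and the paired shares rest on the numbers. Replicates differed by more than sampling noise, and p-values measure the spread between cultures of 1 line. The fitting steps were tested on simulated data. Alternatives were DESeq2 size factors, no filter, a floor of 10 counts in every library, a fit lacking the replicate block, the DESeq2 test (1.42.0), a fit of only the compared libraries, and leaving out replicates and libraries. The 10 genes and the lists (31 family genes, 10 co-receptors, 31 signalling genes, and markers of epithelial, endothelial, leukocyte, and pericyte and fibroblast cells) were chosen with earlier results of these data known. Named were HIF1A, EPAS1, the 10 genes, every called gene of the family, co-receptor and signalling lists (up to 5 per comparison of the last 2), and the 5 genes most like SEMA5B and SEMA6B.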

Additional observations from a re-analysis of the deposited data

How the results depend on the processing

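The count of called family genes (31 listed) moved with the fit. It includes the 10 genes, which were chosen with their changes known. Without the replicate block it was 0 for HIF1A siRNA against control (1 with the block), 2 for the double knockdown against control (7), 0 against HIF1A siRNA (2) and 1 against HIF2A siRNA (3). L1CAM, FYN and DPYSL2 lost each of their calls without the block. PLXNB3 lost its call with HIF1A siRNA against control, and SEMA4B and SEMA6B theirs in the double knockdown against HIF1A siRNA. With the DESeq2 test the family count was 1 for HIF2A siRNA against control (0 with edgeR) and 2 for HIF1A siRNA against HIF2A siRNA (1). It was 1 for the interaction (0) and 4 where the double knockdown was set against HIF1A siRNA. Over all genes DESeq2 called 58, 329, 11 and 403 in this order, where edgeR called 11, 193, 0 and 182. Such totals are not given here for the other alternatives. With only the compared libraries the family count was 2 between the single siRNAs, 12 for the double knockdown against control and 7 against HIF1A siRNA. No filter gave 4 between the double knockdown and HIF1A siRNA, and 10 counts in every library gave 2 for HIF1A siRNA against HIF2A siRNA. Leaving out replicates or libraries gave 0 to 1 for HIF1A siRNA and for HIF2A siRNA against control, 1 to 4 between the single siRNAs, and 3 to 11 for the double knockdown against control. For the double knockdown it gave 1 to 5 against HIF1A siRNA, 1 to 4 against HIF2A siRNA, and 0 for the interaction. For the double knockdown against control the count was 3 without replicate 3, 4 when control siRNA replicate 3 was left out and 11 when HIF2A siRNA replicate 2 was. The cause of these moves was not tested. No called value changed its direction. Depth limits SEMA5B, with 5 to 30 counts per library in the double knockdown.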
